A study of Mus musculus with 2 samples.

Results

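Cells show fragments of their own proteins to the immune system through the major histocompatibility complex (MHC), and 10 genes of that route were followed here in mouse brain. They were chosen by name among the non-control spots of both arrays and cover the class I chains (B2m, H2-K1, H2-D1, H2-T23), peptide loading (Tap1, Tap2, Tapbp), class II (H2-Aa, Cd74) and the class I regulator Nlrc5. The array carried 17 probes for them, each with 1 spot, out of 56603 probes for 37007 genes or unnamed array entries. Of these, 15 probes and 9 of the 10 genes were well above background on both arrays, against 36717 probes and 23918 genes in all. H2-Aa was the gene left without a value.

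The series concerns brains that lost GPHR and set total RNA from littermates at postnatal day 10 side by side, both of strain C57BL/6J. One sample had the genotype GPHR F/F, the control, and the other GPHR F/F;Nes, so both carry the F/F alleles of GPHR and differ, per the labels, in Nes. GPHR is the Golgi pH regulator, a channel of the Golgi membrane that Gpr89 encodes in the mouse. The labels do not spell out Nes, do not name the driver or the altered exons, and do not say how many animals gave each RNA. In mouse genetics, Nes commonly stands for a Cre recombinase driven by the nestin promoter, which is active in neural progenitors and so reaches neurons, astrocytes and oligodendrocytes but not microglia. Each genotype had 1 array (n = 1), so no difference below has a replicate check, no test between genotypes was made, and the number of arrays limits the precision.

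MHC class I molecules sit on nearly all nucleated cells and consist of a heavy chain, such as H2-K1 or H2-D1, the light chain B2m and a peptide. Peptides cut by the proteasome are pumped into the endoplasmic reticulum by the TAP transporter, a pair of Tap1 and Tap2, and tapasin (Tapbp) holds empty class I molecules to it until a peptide fits. Class II molecules, made by microglia, border macrophages and other professional antigen-presenting cells, carry peptides from endosomes, and Cd74 is the invariant chain that blocks their groove until then. Interferons raise both routes. In healthy brain, class I is low in most neural cells and higher in endothelium and microglia.

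Class I genes are near-identical copies, and 3 of the probes that bear on the class I values hold the same stretch of 29 bases. They are shown because the H2-K1 and H2-T23 values below rest in part on them. Capitals mark the shared bases, and the sequences, of 60 bases each, are those of the array file.
H2-K1: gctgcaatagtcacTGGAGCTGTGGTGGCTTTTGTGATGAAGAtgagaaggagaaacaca
H2-T23: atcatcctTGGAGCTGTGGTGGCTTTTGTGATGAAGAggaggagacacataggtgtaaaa
H2-L: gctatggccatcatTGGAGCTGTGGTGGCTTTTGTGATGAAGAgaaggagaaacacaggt
On mm9, the build of the array's coordinates, the probe for H2-K1 lies at chr17:34133984-34134043 on the minus strand, and that for H2-T23 at chr17:36167338-36167574 on the minus strand, a match split over 237 bp. The probe named H2-L lies at chr17:35403191-35403250 on the plus strand, just before the H2-D1 probe on that strand. The C57BL/6 haplotype is known to carry no separate H2-L gene, so the name is that of the array's accession and not a measured gene. The H2-T23 and H2-L probes share a run of 31 bases. Every other member probe shares at most 17 bases in a row with a probe of another gene. What else each probe captures was not tested.

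The regulators of these genes act on short promoter elements, printed here for the 4 class I genes in the RefSeq promoter table (GRCm38.p6, from 250 bases before to 50 after each start). Nlrc5 for class I and Ciita for class II are known to work through a module whose X2 box binds CREB-type factors and whose Y box binds NF-Y, while interferon regulatory factors bind spaced GAAA elements and NF-kappaB binds a palindrome further upstream. Capitals mark matches, on either strand, to AANNGAAA (core of the interferon element), GGGATTCCC (NF-kappaB), TGACG (X2 core) and ATTGG (Y box). None of these matches overlap in the stretches shown, and the letters were picked after the sequences had been seen.
B2m: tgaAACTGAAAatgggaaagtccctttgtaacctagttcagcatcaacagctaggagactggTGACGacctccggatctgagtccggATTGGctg
H2-K1: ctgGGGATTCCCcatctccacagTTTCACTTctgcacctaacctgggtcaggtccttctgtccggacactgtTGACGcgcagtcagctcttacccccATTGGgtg
H2-D1: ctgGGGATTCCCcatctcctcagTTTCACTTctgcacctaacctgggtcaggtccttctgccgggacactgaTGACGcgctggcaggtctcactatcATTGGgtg
H2-T23: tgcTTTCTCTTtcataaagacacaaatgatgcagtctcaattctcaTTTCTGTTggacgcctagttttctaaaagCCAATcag
The B2m stretch is chr2:122147547-122147641 (plus strand, -140 to -46 from the start) and that of H2-K1 chr17:34000356-34000460 (minus strand, -113 to -9). That of H2-D1 is chr17:35262921-35263025 (plus strand, -173 to -69) and that of H2-T23 chr17:36032746-36032828 (minus strand, -127 to -45). B2m, H2-K1 and H2-D1 held TGACG and ATTGG with exactly 20 bases between them, an arrangement found in 31 of 32851 promoters (0.0944%). The 31 promoters belong to 27 genes, with each start of H2-K1 counted apart. Of 98 other genes of the antigen presentation route in the table, 1 held this arrangement, the class I gene H2-M3. The spacing, like the letters, was picked after the sequences had been seen. The low share is therefore a description and no test of the members. GGGATTCCC was in 116 promoters (0.353%), those of H2-K1 and H2-D1 and of 3 other genes of the route among them. The single elements are common: AANNGAAA was in 23.9% of promoters, TGACG in 20.8% and ATTGG in 37.4%. Of the 7 members in the table, 5 held AANNGAAA (the 4 printed and H2-Aa), 5 held TGACG and 7 held ATTGG. Tap2, Nlrc5 and Cd74 had no entry. A match is a description of letters and shows no binding.

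Signal is given in the scanner's processed units, control first and GPHR F/F;Nes second. The level is the log2 of that signal minus the array's own 75th percentile (259.5 units in the control, 173.4 units in the other), and a difference is the level of the second array less that of the control, in log2 units. The ± value is the error that the scanner software assigns to such a difference. It is technical and takes no account of animals or of disagreement between probes. The second array was the dimmer, and only 17% of the 36717 measured probes had a higher signal in units there, and 6 of the 15 measured member probes did. In bulk tissue, fewer cells of a type and less RNA per cell cannot be told apart.

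Of the 8 members of the class I route, 7 had the higher level in GPHR F/F;Nes while H2-D1 was lower, although under spike-in scaling only Tap2 stayed above 0. Of the class II members, Cd74 alone was measured, and it was level. The largest difference was that of Tap2, at 1.01 ± 0.20 or 2.02-fold, followed by Tapbp at 0.86 ± 0.15 and Nlrc5 at 0.83 ± 0.22. B2m stood at 0.58 ± 0.19, H2-K1 at 0.40 ± 0.14, H2-T23 at 0.35 ± 0.15 and Tap1 at 0.32 ± 0.16. Cd74 lay at 0.01 ± 0.21 and H2-D1, the one negative value, at -0.24 ± 0.20. Of the 9 measured members, 1 was higher by 2-fold or more (Tap2) and 0 lower by as much, where 7.94% of all measured genes were 2-fold higher and 1.37% lower. At 1.5-fold, 3 were higher and 0 lower, beside 18.1% and 5.67% of all genes. The members' median was 0.40 and that of all genes 0.07, with 8 members above 0 beside 57.0% of all genes. All 9 values lay inside the range from the 5th to the 95th percentile of all genes, -0.62 to 1.22.

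**Figure D1:**
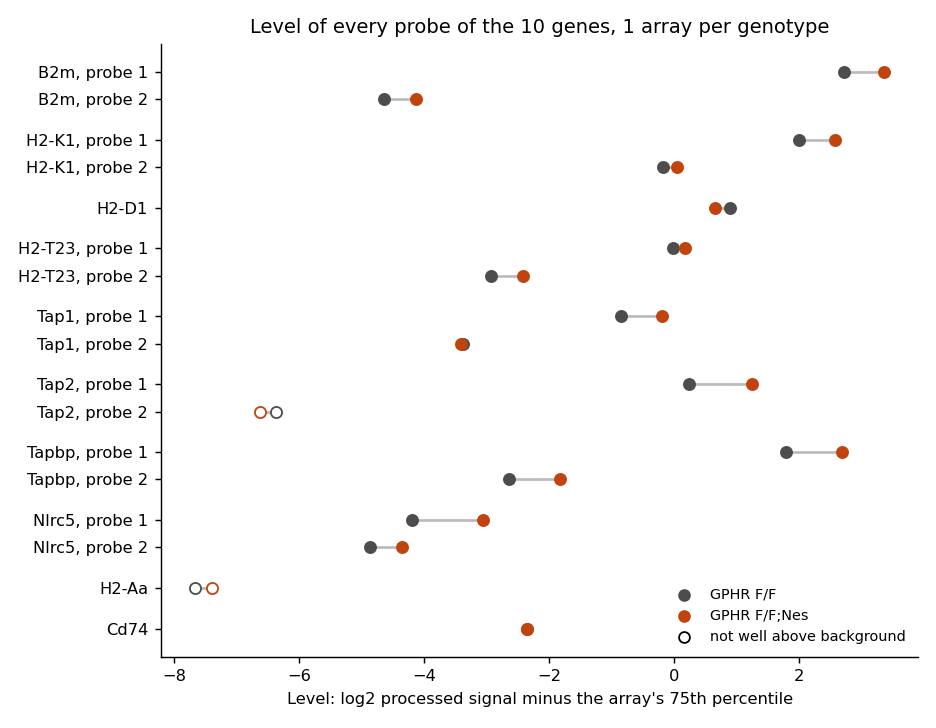
Level of each of the 17 probes (log2 processed signal minus the array's 75th percentile, x axis) on the GPHR F/F array (grey) and the GPHR F/F;Nes array (orange), 1 array each. The 2 probes drawn open, 1 of Tap2 and that of H2-Aa, were not well above background on either array, and levels of different probes are not comparable with each other.

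B2m, the light chain that every class I molecule needs, had a bright probe at chr2:121978401-121978460 with 1706 and 1783 units. Its difference was 0.64 ± 0.20. Of 1136 probes of like level, meaning within 0.25 log2 units, 4.93% had a higher difference. A dim B2m probe at chr2:121974599-121974658, with 10.32 and 9.84 units, gave 0.51 ± 0.32. Probes of that low level had a median difference of 0.40, so the dim probe lay close to its neighbours in level and the bright one 0.79 above them. Both B2m probes were higher, the bright one by more than 3 times its scanner error.

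H2-K1 is a classical class I heavy chain that presents peptides to CD8 T cells. Its brighter probe, chr17:34133055-34133114, had 1038 and 1035 units, nearly equal in units and thus 0.58 ± 0.20 higher after scaling. Among 1457 probes of like level the median was -0.11, and 5.97% were higher. The probe with the shared run, printed above, had 229 and 179 units and a difference of 0.23 ± 0.20. The pair therefore agreed in direction and differed in size, with an SD of 0.25 between them.

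H2-D1, the other classical heavy chain of this strain, was measured by 1 probe at chr17:35403886-35403945. It had 482 and 273 units, a difference of -0.24 ± 0.20, little more than its scanner error. The median of the 1821 probes of like level was -0.08, and 69.0% of them were higher. The H2-L probe just before it had 266 and 173 units and a difference of -0.04 ± 0.20. H2-K1 and H2-D1 thus stood on opposite sides of 0 under the scaling used here, while under spike-in scaling both were below it, at -0.55 and -1.20. The promoter stretches printed above hold the same elements in the same order for both, and no link to these values was tested. Whether the gap between H2-K1 and H2-D1 exceeds that between animals cannot be told with 1 array each.

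H2-T23 encodes a nonclassical class I chain whose product is read by inhibitory receptors of natural killer cells. The probe with the shared run had 255 and 196 units and gave 0.20 ± 0.20. A dimmer probe at chr17:36168022-36168081, without that run, had 34.2 and 32.5 units and gave 0.51 ± 0.22. For both genes with a probe holding the shared run, that probe gave the smaller difference of the pair.

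Peptide loading held the largest differences among the members. Tap2, a subunit of the TAP transporter, had 306 and 413 units at chr17:34353116-34353175, higher in units as well as after scaling. The median of the 1848 probes of like level was -0.09, and 4.004% of them were higher. The other Tap2 probe, chr17:34341478-34341537, read 3.12 and 1.75 units and was not well above background on either array, so the Tap2 value rests on 1 probe. No probe of another gene shared more than 16 bases in a row with it.

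Tapbp (tapasin, which joins class I molecules to TAP) was the member with the closest agreement between probes. The probe at chr17:34066022-34066081 had 901 and 1120 units and a difference of 0.89 ± 0.20, and 2.79% of the 1467 probes of like level were higher, the lowest such share of any member probe. The probe at chr17:34063096-34063155, with 41.4 and 49.2 units, gave 0.83 ± 0.21. The SD between them was 0.05, and both had more units in GPHR F/F;Nes.

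Tap1, the other TAP subunit, did not match Tap2. Its probe at chr17:34334022-34334081 had 144 and 152 units and gave 0.66 ± 0.20. Its probe at chr17:34330854-34330913 had 24.9 and 16.3 units and gave -0.03 ± 0.24. The mean of 0.32 therefore stands for a pair of probes that disagree, with an SD of 0.49, and it is the member with the widest such gap.

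Nlrc5, the transactivator that drives class I genes, was dim on both arrays. The probe at chr8:97051105-97051164 had 14.1 and 20.7 units and a difference of 1.13 ± 0.26, or 2.20-fold. The split match from chr8:97030478-97030624 had 8.85 and 8.50 units, near the lowest signals called above background (6.28 and 5.06 units), and gave 0.52 ± 0.36. Probes as dim as these had median differences of 0.32 and 0.39, so 0.82 and 0.13 remained above them. The second of these is within its scanner error.

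Of the class II members only Cd74 has a value. It had 50.7 and 34.1 units at chr18:60972075-60972132, a fall in units that the scaling brought to 0.01, and 63.8% of the 2543 probes of like level were higher. The H2-Aa probe at chr17:34421285-34421344, for the class II alpha chain, read 1.28 and 1.03 units and was not well above background on either array. Its level therefore has only an upper bound on both, and no fold is given.

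Counted by probe, 13 of the 15 measured member probes were above 0, beside 53.9% of all measured probes. At least 2-fold higher were 2 of the 15 (1 each of Tap2 and Nlrc5) and 0 were 2-fold lower, beside 7.11% and 1.45% of all. Against the median of probes of like level, 12 of the 15 were higher, and the exceptions were those of H2-D1 and Cd74 and the dimmer one of Tap1.

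**Figure D2:**
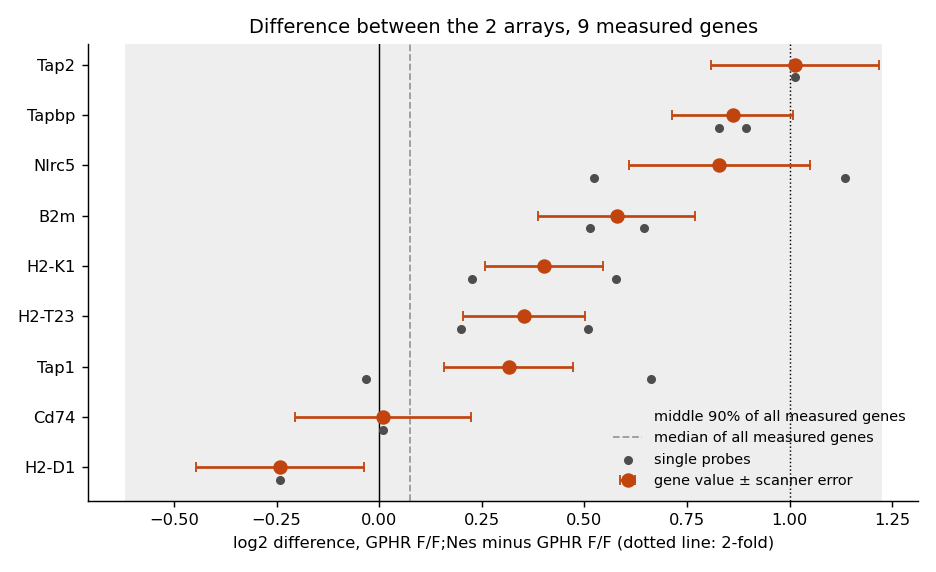
Difference of each measured gene (orange, x axis in log2 units) with its scanner error, and of its single probes (grey points below), for 1 array per genotype. The values run from -0.24 for H2-D1 to 1.01 for Tap2, all within the shaded band of -0.62 to 1.22 that spans most genes, and under spike-in scaling only Tap2 stays above 0.

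**Figure D3:**
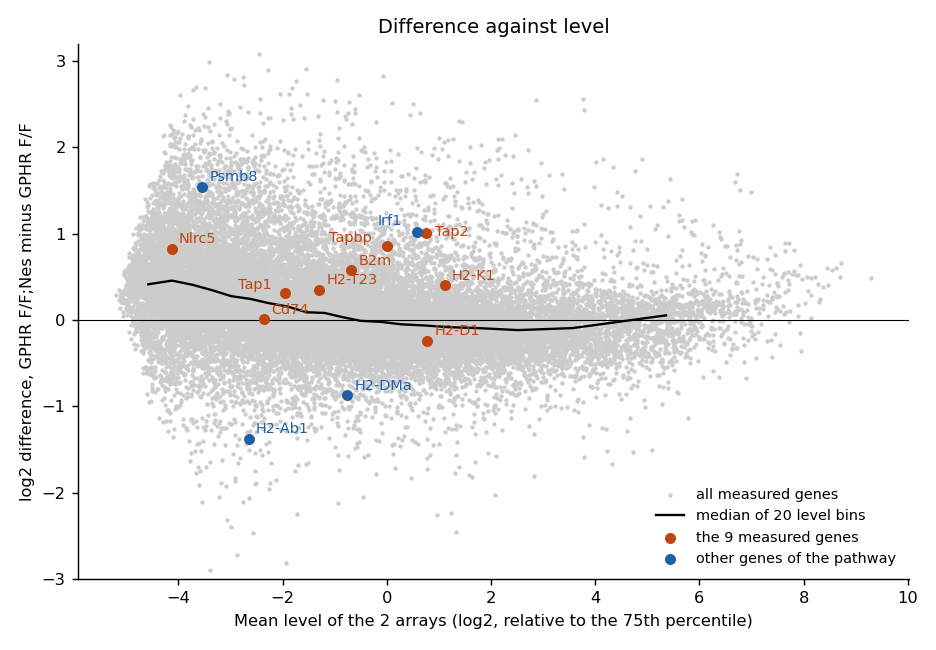
Difference against mean level for the 23918 measured genes (grey), with the median of level bins as a line, the 9 measured members in orange and 4 other pathway genes in blue; genes beyond the ends of the vertical axis are not drawn. The line sits above 0 for dim genes, where Nlrc5 lies, and at or below 0 at the levels of Tap2, H2-K1 and H2-D1.

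The rest of the antigen presentation route was taken from 10 lists, of which 85 genes were measured, the array's H2-L name counted among them. Of these, 7 were higher by 2-fold or more, a share near the 7.94% of all measured genes, 1 was lower by as much, beside 1.37% of all, and 57 were above 0. Their median was 0.26. After normexp background correction, which adds an offset of 50 units, Psmb8 moved to 0.31, Ctss to 0.38, H2-Ab1 to -0.62, Ifna11 to 1.17 and Ifna9 to 0.24.

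Among 18 measured other class I genes of the MHC, 0 were 2-fold higher or lower, 11 were above 0 and 7 below, and the median was 0.15. The 18 include the array's H2-L name, at -0.08 ± 0.14, although this strain has no separate H2-L gene. The lowest were H2-M3 at -0.60 ± 0.23, H2-Q1 at -0.55 ± 0.37 and H2-M5 at -0.43 ± 0.17. H2-T10 stood at 0.93 ± 0.22, with 27.9 and 35.6 units, H2-T9 at 0.75 ± 0.21 and H2-T22 at 0.72 ± 0.21. These are closely related chains, so their probes may read each other. H2-Q4 was at 0.85 ± 0.20 on a probe of 31540 and 37909 units. Class I-like genes outside the MHC held 2 of 6 measured genes past 2-fold, beside 7.94% of all genes, and had a median of 0.77, or 0.31 after normexp. Fcgrt, the neonatal Fc receptor, was at 1.08 ± 0.21 (64.8 and 91.3 units) and Mr1, which presents vitamin metabolites, at 1.01 ± 0.20 (145 and 194 units). Hfe, a regulator of iron uptake, was at 0.96 ± 0.22 with probes at 0.43 and 1.49, and Cd1d2 at 0.58 ± 0.21. Fcgrt, Mr1 and Hfe pair with B2m. The 2 genes of this list below 0 were Cd1d1 at -0.04 ± 0.20 (250 and 162 units) and Azgp1 at -0.19 ± 0.26.

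The immunoproteasome, which cuts peptides that suit class I, was split. Psmb8, a catalytic subunit, was at 1.54 ± 0.26 on a dim probe with 13.1 and 25.5 units, and Psmb9 at 0.72 ± 0.21 with 53.9 and 59.5 units. The third inducible subunit, Psmb10, was at -0.19 ± 0.20 and the activator subunit Psme1 at -0.06 ± 0.20. A list of the constitutive subunits Psmb5, Psmb6 and Psmb7 and another activator, Psme3, had a median of -0.23. Psmb7 was at -0.39 ± 0.20, Psme3 at -0.38 ± 0.14, Psmb5 at -0.09 ± 0.20 and Psmb6 at 0.01 ± 0.14. None of those 4 was 2-fold different. Among 8 peptide-trimming and chaperone genes, 0 were past 2-fold and the median was 0.38. The tapasin relative Tapbpl was at 0.87 ± 0.23, the peptidases Thop1 at 0.54 ± 0.13 and Erap1 at 0.48 ± 0.24, and the chaperone Calr at 0.43 ± 0.20. For Thop1 the SD between probes was 0.67.

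The other class II pathway genes ran both ways, with 1 of 12 measured genes 2-fold higher, 1 2-fold lower and a median of 0.14. H2-Ab1, the class II beta chain, was at -1.38 ± 0.14, the most negative value of the pathway. Its 3 measured probes had 99.4 and 24.7 units, 86.1 and 18.8 units, and 34.4 and 10.8 units, and their differences were -1.43, -1.61 and -1.09. A further probe was above background on the control array only, at 10.54 units. H2-DMa, which helps load class II, was at -0.87 ± 0.21 (207 and 75.4 units), and H2-Eb1 at -0.25 ± 0.23. Ctss, the cathepsin that trims Cd74, was at 1.35 ± 0.23 (23.3 and 39.7 units), and Marchf1, a ligase that removes class II from the surface, at 0.52 with probes at opposite signs (SD 1.19). Of the 12 genes, 7 were above 0, H2-DMb1 at 0.39 ± 0.25 and Ifi30 at 0.29 ± 0.22 among them.

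Of 11 transcription regulators of MHC genes, 1 was 2-fold higher and the median was 0.23. That gene was Irf1, which activates class I, Tap1 and Psmb9 genes after interferon, at 1.02 ± 0.20 with 273 and 370 units. Another Irf1 probe passed background on the second array only, at 14.03 units beside 7.23 in the control. Rfxank, a subunit of the factor on the X box, was at 0.93 ± 0.21 (62.1 and 79.1 units), Nfya of the Y box factor at 0.52 ± 0.14, and Irf8 at 0.60 with an SD of 0.89 between probes. Ciita, the class II transactivator, was at 0.27 with probes at -0.90 and 1.43, so it has no settled direction.

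Interferon receptors and signalling genes held 0 of 12 past 2-fold, with a median of 0.28. The inhibitor Socs3 was at 0.77 ± 0.20, Irf9 at 0.57 ± 0.15 and Ifnar1 at 0.49 ± 0.11, the last with an SD of 0.48 between its probes. Among the interferon genes themselves 7 were measured, most of them dim, with 2 past 2-fold, beside 7.94% of all genes. Their median was 0.85, or 0.11 after normexp. Ifna11 was at 2.16 ± 0.21 (50.3 and 150 units), Ifna9 at 1.06 ± 0.23, Ifna5 at 0.86 ± 0.28 and Ifnab at 0.85 ± 0.18. Ifng was not well above background on either array (1.91 and 3.16 units). Ifnb1 was above background in the control alone, at 23.3 units, and at least 3.07-fold higher there. Of the receptors for MHC only 3 genes were measured, Pirb at 0.50 ± 0.20, Cd4 at -0.40 ± 0.20 and Cd8b1 at 0.24 ± 0.30, with 0 past 2-fold. The Cd4 value rests on 1 probe, and another passed background on the second array only, at 5.85 units beside 2.92 in the control. The Pirb probe read 64902 and 61399 units, while the gene's other probes read 2.92 and 7.19 units and 1.28 and 3.15 units, so the value rests on that probe alone. Cd8a was not above background on either array.

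**Figure D4:**
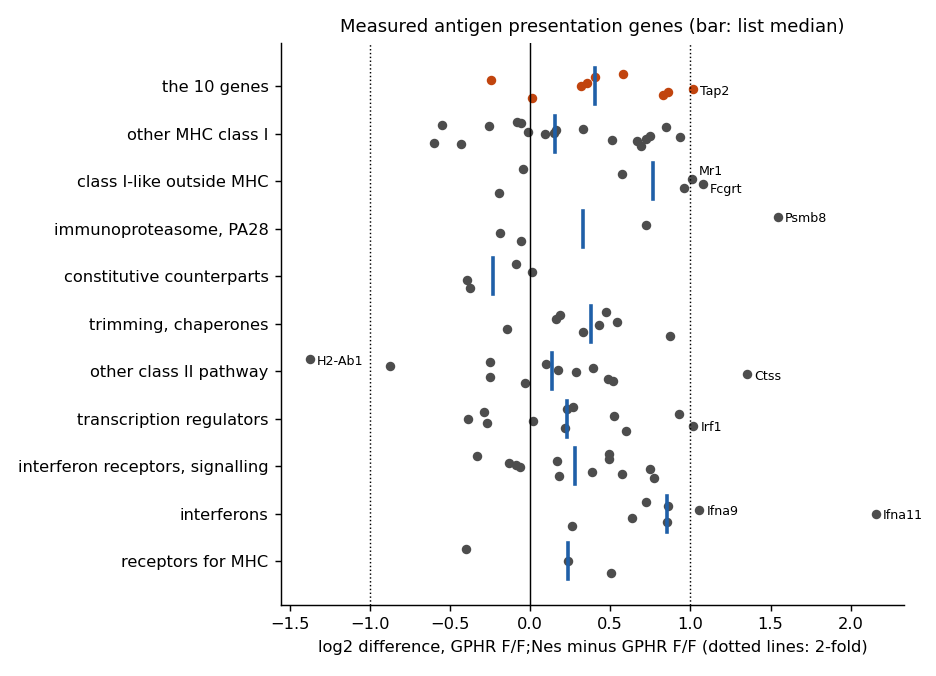
Difference of each measured gene (points, x axis in log2 units, 1 array per genotype) in the 10 members (orange) and the other lists of the pathway (grey), with a bar at each list's median and names for genes past 2-fold. Psmb8 at 1.54, Ctss at 1.35 and Ifna11 at 2.16 lie to the right, and H2-Ab1 at -1.38 is the one gene past 2-fold to the left.

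Most members sit together in the genome, so their neighbours were measured beside them. The 7 members on chromosome 17 span 2.105 Mb of mm9, chr17:34063096-36168081. Genes of the pathway lists above, H2-Ab1 and Psmb8 among them, were left out of this count. Of the 149 remaining genes on the array within that span, 117 were measured, and their median was 0.11. At least 2-fold higher were 7 of them (5.98%, beside 7.94% of all genes), and Ltb, a lymphotoxin chain, was the one 2-fold lower, beside 1.37% of all genes. Above 0 were 69 (59.0%, beside 57.0% of all genes). The largest differences were those of Cdsn at 3.81, Gm15821 at 1.79 and Col11a2 at 1.47, the last with an SD of 1.51 between its probes. The Gm15821 probe lies between both Tap2 probes.

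Markers of the cell types that express these genes also differed between the arrays. Of 15 microglia markers 12 were measured, all above 0, with 5 past 2-fold and a median of 0.80. Over all measured genes, 7.94% were 2-fold higher and 57.0% above 0. The summed level of the microglia markers (signal over the 75th percentile) was 14.9 and 18.2, a sum over unlike probes that in every list follows its brightest ones. Here Siglech, with probes at -0.29 and 0.63, made up most of it. Of the defining markers, Cx3cr1 was at 1.69 ± 0.22, Tmem119 passed background on the second array only (at least 4.60-fold higher), and P2ry12 was above background on neither array. Border macrophage markers had a median of 1.11 over 4 of 7 measured and summed levels of 0.21 and 0.49, but Mrc1, Cd163 and Lyve1 were not above background on either array. For 12 endothelial markers, 7 were measured, 5 above 0 and 2 below, with a median of 0.86 and sums of 11.54 and 13.4. Past 2-fold were 3, each on 1 measured probe: Flt1 at 1.35 ± 0.21, Kdr at 1.23 ± 0.20 and Ly6c1 at 1.20 ± 0.38. Egfl7, the largest part of the control's sum for this list, was at -0.77 ± 0.20, and Pecam1 was at -0.07 ± 0.23. Emcn and Esam passed background on the control array only, and Cldn5 and Cdh5 were above background on neither array. Meningeal fibroblast markers, all 7 measured, had a median of 2.61, sums of 7.41 and 10.7 that were mostly Dcn (-0.07 ± 0.20), and Col1a1 at 1.44, Col1a2 at 2.61 and Col3a1 at 2.62. Choroid plexus markers had a median of 1.34 over 5 of 7, sums of 1.64 and 6.25, Ttr at 5.35 ± 0.22, Folr1 at 1.43 ± 0.15 and Kl above background on neither array. Sostdc1, the 1 measured choroid plexus marker below 0, was at -0.52 ± 0.20 (249 and 116 units). After normexp the medians were 0.28 for microglia, 0.21 for border macrophages, 0.08 for endothelium, 0.93 for meningeal fibroblasts and 0.28 for choroid plexus. Under spike-in scaling they were -0.15, 0.15, -0.09, 1.66 and 0.38 in that order. The part of these cells in the class I values was not tested.

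Markers of lymphocytes, dendritic cells and blood were detected in part. Of 8 T and natural killer cell markers 4 were measured, with a median of -0.21, sums of 1.91 and 1.42, Cd3e at -0.01 ± 0.16, Lck at -0.91 ± 0.19 (its brighter probe at 557 and 212 units) and neither Cd3d nor Cd3g above background. B cell markers had a median of 0.81 over 4 of 5 and sums of 0.26 and 0.61, with Cd79a 2.14-fold higher, Ms4a1 at 1.67 ± 0.19 (its brighter probe at 130 and 328 units) and Cd79b not above background. After normexp the B cell median was 0.06. Dendritic cell markers had a median of 0.09 over 3 of 7 and sums of 0.27 and 0.31, with Flt3 at 0.09 ± 0.18, Zbtb46 at -0.07 ± 0.17 and Itgax not above background. Of 5 monocyte and neutrophil markers none was measured on both arrays: Ly6c2 passed background on the second array only, and Ccr2 and Plac8 on neither. Erythrocyte markers had a median of -0.17 over 2 of 7, sums of 0.56 and 0.51, Hba-a1 at -0.28 ± 0.06, Hba-a2 at -0.07 ± 0.07 and Hbb-b1 not above background. Neuron markers, as the tissue label calls for, were bright, with 7 of 7 measured, a median of -0.20 and sums of 63.4 and 51.9. There, Rbfox3 was at -0.88 ± 0.12, Snap25 at -0.14 ± 0.12 with probes at opposite signs (SD 0.90), and Syt1 at -0.15 ± 0.12. Astrocyte markers had a median of 0.38 over 6 of 6 and sums of 16.02 and 21.4, with Aqp4 at 0.58 ± 0.12, Gfap at 0.82 ± 0.14 and Aldh1l1 at 0.09 ± 0.15.

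As checks of the labels, the 1 Gpr89 probe had 43.3 and 20.04 units, a difference of -0.53 ± 0.22, and whether it lies in the altered exons is not given. Xist was detected on the second array only (1.36 and 234 units) and Ddx3y, a Y-linked gene, on the control array only (82.5 and 1.13 units). Genotype and sex-linked signal therefore cannot be told apart in any value above. Both arrays were on 1 slide and read in 1 scan, 67.0% and 69.2% of probes were well above background, and no member probe was saturated.

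The size of the members' differences depended on the scaling. With each array centred on its median, 7 of 9 members were above 0 and 0 past 2-fold, and the median of all genes moved to -0.20. Scaled to the array's spike-in RNA controls, the median of all genes was -0.88, Tap2 was the one member above 0 at 0.06, and H2-D1 was 2-fold lower at -1.20. Over all genes, the shares 2-fold higher and lower were 4.49% and 3.37% after centring on the median and 0.778% and 38.5% after the spike-in scaling. Both of these scalings move every gene by the same amount, so they leave the order of genes as it was. Quantile, loess and normexp correction and the choice of the brightest probe can change that order, and under each of them 7 of the 9 members lay above the median of all genes.

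**Figure D5:**
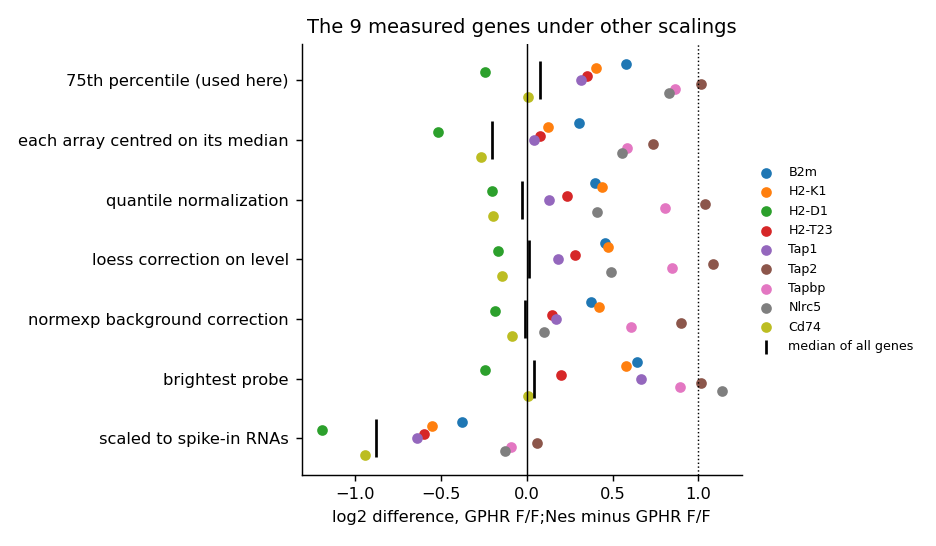
Difference of the 9 measured members (coloured points, x axis in log2 units) under the scaling used above and 6 alternatives, with the median of all genes as a black bar, for 1 array per genotype. H2-D1 and Cd74 lie below the bar in every line, and the other 7 members above it, which centring and spike-in scaling, shifting all genes alike, cannot change.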

How the data were processed

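Brain RNA of littermates was hybridised to 1 array per genotype, and the number of animals behind each RNA is not given. TRIzol extraction and Cy3 labelling are given per the labels' protocols, and the scans were read by Agilent Feature Extraction 11.5.1.1, per the submitters' processing notes. In the deposited scanner output each spot has an intensity on a linear scale, with background subtracted and spatial trends removed per the file headers. Other deposited values, flags of 0 or 1, mark outliers, saturated spots and spots well above background. A deposited value table of the series is on the log2 scale. For 99.8% of probes it equalled the log2 processed intensity plus a constant per array (-8.01 and -7.43), within 0.001. Its column medians were -3.19 and -2.92, it was not centred per probe, and how the authors chose the constants was not given in the sources used here.

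From there, 96 outlier-flagged spots were left out, spots of 1 probe were averaged as log2 values, and each array's 75th percentile was subtracted. A gene's value is the mean over its probes well above background on both arrays, and its error combines the scanner errors of those probes. A signal above background on 1 array gave a bound against the lowest signal called above background on the other (6.28 or 5.06 units) or the probe's own, whichever was higher. Names were updated through accessions in a RefSeq table of GRCm38.p6 (32988 probes matched). Where the probes lie in exons was not analysed here.

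With 1 array per group no test was possible, so differences of at least 2-fold were counted. The members and all lists were chosen with earlier results of these data known. The text names all members, up to 4 genes of each pathway list with the largest absolute difference, the first 3 markers of each marker list, up to 3 neighbours, Gpr89, Xist and Ddx3y. A few genes taken by this rule are not reported here. Outside this rule, H2-L, H2-M3, H2-M5, H2-Q1, Cd1d1, Azgp1, H2-Eb1, H2-DMb1, Ifi30, Ciita, Ifng, Ifnb1, Ifna2, Ifna7, Ifnk and Ltb were named after their values were seen. So were the markers Siglech, Egfl7, Emcn, Esam, Flt1, Kdr, Ly6c1, Sostdc1, Dcn, Lck and Ms4a1. On simulated data, shifts past 2-fold were put alike into all probes of a gene with little noise, and the calculation recovered them. That checks the arithmetic alone and cannot show how well differences as small as the members' are measured. Analyses used Python 3.11.15, numpy 2.4.6, pandas 2.3.3, R 4.3.3 and limma 3.58.1 (loess span 0.3, normexp offset 50).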

Additional observations from a re-analysis of the deposited data

How the results depend on the processing

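Alternatives were centring on the median, quantile and loess normalization, spike-in scaling (8 probes), normexp background correction, the deposited table, the filter on dim probes dropped or made stricter, each gene's brightest probe or its probes' median, outlier-flagged spots included, and thresholds of 1.5-fold and 3-fold. Probes of curated RefSeq mRNAs alone were chosen after seeing the data. The count of members at least 2-fold higher was 0 after centring on the median, spike-in scaling, normexp and without a filter, 2 with the brightest probe, 3 at 1.5-fold and 0 at 3-fold, and the count lower was 1 after spike-in scaling. The members' median of 0.40 became 0.13 after centring on the median, -0.55 after spike-in scaling, 0.17 after normexp, and 0.65 with the stricter filter or the brightest probe. The MHC neighbours' median became -0.16 after centring on the median and -0.84 after spike-in scaling. Without a filter Tap2 fell to 0.38, by the construction of that setting, since its probe near background then counts. The other alternatives left these counts as they were and moved these medians by less than the members' median scanner error of 0.19. Less the median of all genes, the members' median was 0.33, a value that centring and spike-in scaling cannot move. It was 0.43 after quantile normalization, where the median of all genes moved by -0.11, 0.18 after normexp, 0.09 without a filter, 0.60 with the brightest probe and 0.71 with the stricter filter. Nlrc5 is limited by signal near background, at 0.10 after normexp. No paired analysis was possible because each genotype had 1 array.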
